A study of Mus musculus with 2 samples.

Results

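The 9 genes described here encode the core machinery of classical non-homologous end joining, and they were picked by name as a pathway: Xrcc5, Xrcc6, Prkdc, Dclre1c, Poll, Polm, Xrcc4, Lig4 and Nhej1. They were found by matching each gene identifier, without its version, to its symbol in the GENCODE mouse annotation, and all 9 were among the 43346 genes of the deposited tables. Their RNA was measured in the mouse cell line CH12.LX, established from a B-cell lymphoma of strain B10.H-2aH-4bp/Wts, and the labels give the line as the counterpart of the human line GM12878. There were 2 biological replicates from separate biosamples of this immortal line, with no treatment named, which form 1 group, so the data hold no contrast between conditions. RNA longer than 200 nt was used and ERCC spike-in RNAs were added. The labels call the assay total RNA sequencing and describe the RNA as poly(A)+, and which of these applies was not settled here.

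Classical end joining reseals a broken chromosome without a template. The Ku ring slides onto each DNA end and recruits the kinase DNA-PKcs, Artemis opens hairpins and trims ends, polymerases mu and lambda fill short gaps, and XRCC4, DNA ligase IV and XLF seal the nick. In B lymphocytes the same machinery joins the breaks that RAG makes during V(D)J recombination and many of the breaks made during class switching.

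Replicate 1 held 24469094 expected counts and replicate 2 held 23586580, of which the 9 genes took 9318 and 9605. The label of a B-cell line was met by its markers. All 6 B-cell markers were at 1 TPM (transcript abundance per length, scaled to a fixed library total) or more in both replicates, from Pax5 at 8.43 ± 0.933 TPM to Ms4a1 at 523.5 ± 43.5 TPM (SD, n = 2). Of 9 markers of T, myeloid, natural killer and stromal cells 1 reached that level, Pecam1 with a mean of 14.8 TPM, while Cd3e, Cd14 and Ncr1 had 0 counts. Because TPM corrects for transcript length, genes can be compared with each other within a library. Errors are SD over the 2 replicates throughout, and no test between genes was run on these 2 replicates. In bulk RNA, fewer cells that express a gene and less RNA per cell cannot be told apart.

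All 9 end-joining genes were detected, and their mean levels spanned 60.4-fold, from Xrcc5 at 67.6 TPM to Polm at 1.12 TPM. The span rests on Polm: it was 43.3-fold in replicate 1, 93.5-fold in replicate 2, 39.9-fold in posterior mean TPM and 27.8-fold without Polm. At 1 TPM or more in both replicates stood 8 of the 9, against 25.4% of all genes and 45.9% of the 21474 genes annotated as protein-coding. The remaining gene, Polm, was at 0.76 TPM in replicate 2. In posterior mean TPM Polm was at 1.99 in replicate 1 and 1.31 in replicate 2, so its place beside this level depends on the measure. Beside the protein-coding genes that reached this level, the pathway as a whole was not high. The median of the 9 mean levels was 10.8 TPM, and the median over the 9862 protein-coding genes at 1 TPM or more was 19.2 TPM. Of the 9 members only the 2 Ku genes were above 19.2 TPM. These sets are unlike, since the 9 include Polm, which was below 1 TPM in replicate 2. The order of mean levels was Xrcc5, Xrcc6, Xrcc4, Poll, Prkdc, Dclre1c, Nhej1, Lig4 and Polm.

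**Figure D1:**
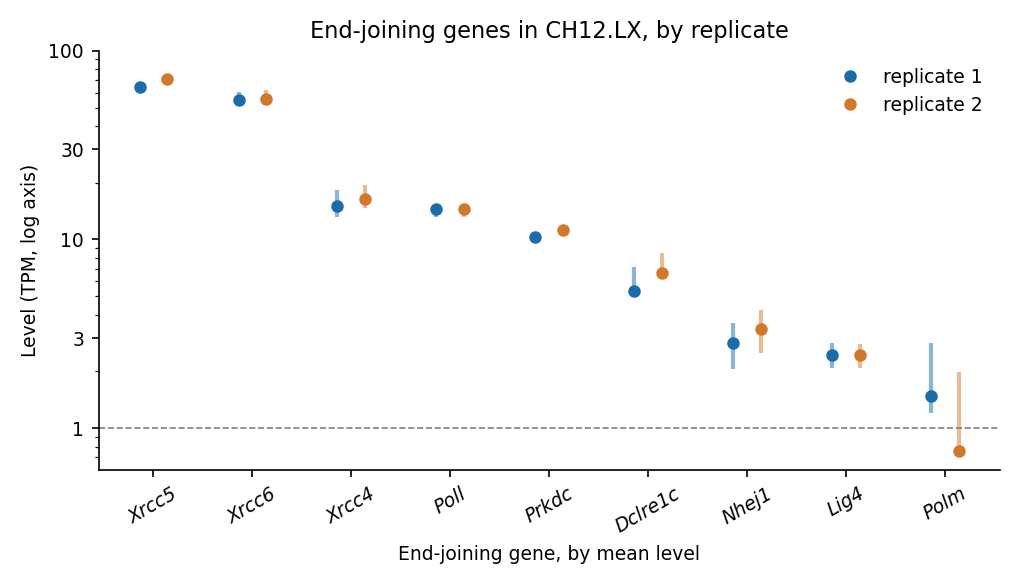
Level of each end-joining gene in TPM on a log axis, by replicate (points), with the credibility interval deposited by the authors (lines) and a dashed line at 1 TPM. Xrcc5 and Xrcc6 stood apart at the top, between 55.2 and 71.1 TPM, and Polm was the lowest in both replicates.

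In that order the replicate values of each of the 8 pairs of neighbours did not overlap. The credibility intervals that the authors deposited, at a level not given in the sources used here, are a stricter measure, and they were apart for 4 of the 8 pairs. Those 4 steps were Xrcc6 above Xrcc4, Poll above Prkdc, Prkdc above Dclre1c and Dclre1c above Nhej1. The intervals of Xrcc5 and Xrcc6, of Xrcc4 and Poll, of Nhej1 and Lig4, and of Lig4 and Polm overlapped in at least 1 replicate, so these neighbours were not separated. In the plot of levels by replicate, the Ku pair stood at the top, 3.52-fold from Xrcc6 to Xrcc4, and Xrcc4, Poll and Prkdc followed. Dclre1c lay between Prkdc, 1.79-fold above it, and Nhej1, 1.94-fold below it, with Lig4 and Polm lower still.

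The start regions of these genes differed in base composition, and 3 of them are printed because they belong to the gene with the highest level and the 2 genes with the lowest. RefSeq's table of start regions on GRCm38.p6 matched 7 of the 9 genes with 8 windows, and Prkdc and Poll were not matched. Each window is the 250 bases before the RefSeq start, written 5′ to 3′ on the gene's strand. Xrcc5 is chr1:72307171-72307420 on the plus strand, Lig4 is chr8:9976312-9976561 on the minus strand and Polm is chr11:5838017-5838266 on the minus strand. Capitals mark matches to the searched motifs on either strand. The GC box, which Sp1-type factors bind, was searched for as GGGCGG. For the core site of the ETS family of factors the letters were CCGGAAG. The CCAAT box, which NF-Y binds, was searched for by its name's letters.
Xrcc5: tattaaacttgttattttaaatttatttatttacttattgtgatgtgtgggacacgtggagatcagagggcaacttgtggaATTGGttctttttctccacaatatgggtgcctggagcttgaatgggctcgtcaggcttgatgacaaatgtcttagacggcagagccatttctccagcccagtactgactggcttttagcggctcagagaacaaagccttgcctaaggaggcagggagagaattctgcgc
Lig4: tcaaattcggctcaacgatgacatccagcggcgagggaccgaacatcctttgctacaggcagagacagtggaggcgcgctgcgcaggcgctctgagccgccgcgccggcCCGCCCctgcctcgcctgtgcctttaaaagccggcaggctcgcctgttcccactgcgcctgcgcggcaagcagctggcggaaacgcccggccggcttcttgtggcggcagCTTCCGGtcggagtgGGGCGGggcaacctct
Polm: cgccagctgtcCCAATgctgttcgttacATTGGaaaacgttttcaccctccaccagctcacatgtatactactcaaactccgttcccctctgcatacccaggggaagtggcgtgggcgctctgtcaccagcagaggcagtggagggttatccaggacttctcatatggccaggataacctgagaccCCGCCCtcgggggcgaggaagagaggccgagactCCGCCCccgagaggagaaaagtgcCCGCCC
The Xrcc5 window had 44.8% G + C and a single match, a CCAAT box on the opposite strand whose first base was at -169 from the start. The Lig4 window had 68.4% G + C, GC boxes at -141 and -16 and an ETS core at -31. The Polm window had 59.2% G + C, with GC boxes at -64, -30 and -6 and CCAAT boxes at -239 and -222.

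Over the 8 windows the median G + C content was 62.2%, against 52.4% over all 32851 windows of the table. All windows stand for 27025 genes, whether or not these reached 1 TPM here. The same values over expressed protein-coding genes were not taken, so a trait of expressed genes in general cannot be told apart from one of the pathway. The median ratio of observed to expected CpG was 0.763 for the members and 0.374 for all windows. On either strand, a GC box was in 6 of the 8 windows against 32.7% of all windows, an ETS core in 3 of 8 against 6.91%, and a CCAAT box in 3 of 8 against 33.8%. The remaining motifs were in at most 1 window. An E2F-like motif, TTTNNCGC, was in 1 of 8 against 4.28%, with matches at -155 and -46 from the start of Xrcc6. TATAAA was in 0 of 8 windows against 12.4% of all. The 2 Lig4 windows belong to 1 gene, so the 8 windows are not independent, and a match describes letters and not binding. Both Lig4 windows hold an ETS core, so by gene this motif was in 2 of 7. By gene the GC box was in 6 of 7 and the CCAAT box in 3 of 7. The Ku genes, whose proteins act as a pair, had unlike windows: that of Xrcc6 had 65.2% G + C, 3 GC boxes and no CCAAT box. All 250 bases of the Xrcc6 window are annotated as UTR of Desi1 or Xrcc6, while the Xrcc5 window holds no UTR. In the Xrcc4 window 172 bases are UTR of Tmem167, and in the upstream Lig4 window 230 are UTR of Abhd13 or Lig4. Matches in these windows can therefore lie in transcribed sequence, also of another gene.

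Ku is the first factor at a DNA end, and its subunits had the highest RNA levels of the pathway. Xrcc5, which encodes Ku80, lies on chromosome 1 from 72307421 to 72394952 on the plus strand (GRCm38, ENSMUSG00000026187.8). It had 64.2 TPM in replicate 1 and 71.1 TPM in replicate 2 (3127 and 3324 expected counts), a mean of 67.6 ± 4.89 TPM. Xrcc6, which encodes Ku70, lies on chromosome 15 from 81987835 to 82040085 on the plus strand (ENSMUSG00000022471.9). It had 55.2 and 55.5 TPM (1968 and 1911 counts), a mean of 55.3 ± 0.233 TPM. Xrcc6 was below Xrcc5 in both replicates, with a TPM ratio of Xrcc6 to Xrcc5 of 0.860 in replicate 1 and 0.781 in replicate 2. The mean level of Xrcc5 was above 80.7%, and that of Xrcc6 above 76.5%, of the protein-coding genes at 1 TPM or more. Together the Ku genes held 69.7% of the summed TPM of the 9 members in replicate 1 and 69.5% in replicate 2, a mean of 69.6% ± 0.0970.

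Prkdc encodes DNA-PKcs, the very large kinase that Ku recruits and that phosphorylates other end-joining factors. It lies on chromosome 16 from 15637866 to 15842235 on the plus strand (ENSMUSG00000022672.8). Its level was 10.3 TPM in replicate 1 and 11.2 TPM in replicate 2, a mean of 10.8 ± 0.672 TPM. The gene shows how length bears on counts. With 2616 and 2721 expected counts Prkdc took 28.2% of the members' counts, but 6.09% of their TPM, because its main transcript is 12647 nt long with 86 exons and 4128 codons. The level of Xrcc5 was 6.28 ± 0.0618 times that of Prkdc in TPM, a ratio chosen after its values were seen.

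Dclre1c encodes Artemis, the nuclease that DNA-PKcs activates and that opens hairpin ends. It lies on chromosome 2 from 3424131 to 3464130 on the plus strand (ENSMUSG00000026648.14). Its level was 5.35 TPM in replicate 1 and 6.66 TPM in replicate 2 (316 and 356 counts), a mean of 6.01 ± 0.926 TPM, which was above 21.7% of the protein-coding genes at 1 TPM or more. Prkdc exceeded its partner Dclre1c in both replicates, with a TPM ratio of 1.92 in replicate 1 and 1.69 in replicate 2.

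The gap-filling polymerases of family X differed by more than 10-fold in mean level, with Poll the higher. Poll, which encodes polymerase lambda, lies on chromosome 19 from 45552275 to 45560531 on the minus strand (ENSMUSG00000025218.6). It had 14.6 TPM in each replicate (639 and 615 counts; mean 14.6 ± 0.0283 TPM). Polm, which encodes polymerase mu, the relative of terminal transferase that can bridge poorly paired ends, lies on chromosome 11 from 5827860 to 5838016 on the minus strand (ENSMUSG00000020474.7). It had 1.48 TPM in replicate 1 and 0.76 TPM in replicate 2 (43 and 32 counts; mean 1.12 ± 0.509 TPM). The values of Polm and Poll did not overlap, and the ratio of Polm to Poll was 0.102 in replicate 1 and 0.0521 in replicate 2. Polm also had the widest spread of the 9 genes, an SD of 45.5% of its mean.

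The subunits of the ligation complex differed in level, with Xrcc4 above Lig4 and Nhej1. Xrcc4, which encodes the scaffold that binds and stabilises ligase IV, lies on chromosome 13 from 89774027 to 90089608 on the minus strand (ENSMUSG00000021615.9). It had 15.0 TPM in replicate 1 and 16.4 TPM in replicate 2 (365 and 402 counts), a mean of 15.7 ± 0.983 TPM. Lig4, which encodes the ligase itself, lies on chromosome 8 from 9969049 to 9977686 on the minus strand (ENSMUSG00000049717.8). Lig4 had 2.43 TPM in both replicates (195 and 188 counts), above 7.97% of the protein-coding genes at 1 TPM or more. The scaffold was thus the higher partner in both replicates, with a TPM ratio of Xrcc4 to Lig4 of 6.19 in replicate 1 and 6.76 in replicate 2.

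Nhej1 encodes XLF, the XRCC4-like factor that forms filaments with XRCC4 and aligns the ends. It lies on chromosome 1 from 74967139 to 75125200 on the minus strand (ENSMUSG00000026162.7). Its level was 2.82 TPM in replicate 1 and 3.36 TPM in replicate 2 (49 and 56 counts), a mean of 3.09 ± 0.382 TPM and 0.196 ± 0.0120 times that of Xrcc4. The annotation marks Nhej1 as a fragmented locus, a tag carried by 20 of 21951 protein-coding genes. All counts of Nhej1 fell on a partial transcript, Nhej1-201, with 1053 nt, 5 exons and 165 codons, which is marked as lacking its mRNA start and begins 78587 nt from the RefSeq start of the gene. The other transcript, Nhej1-202, is 65 nt long, lies 26 nt from the RefSeq start and had 0 counts. The level of Nhej1 therefore rests on a part of the gene, and whether it understates the whole was not tested.

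At gene level the posterior SD of the count, as deposited, was 0 in both replicates for all 9 members. Of the 11661 genes with a mean of 20 or more counts, 83.2% had such a value. A posterior SD of 0 does not settle what genes overlapping Dclre1c, Xrcc4 and Xrcc6 on the other strand added, which was not tested. Between the transcripts of a gene the counts were less certain. The 9 genes had 38 transcripts in the tables, of which 10 were at 0 TPM in both replicates. In 7 of the 9 genes a single transcript held over 80% of the TPM in both replicates, while Dclre1c and Polm were the exceptions. No share over all genes was taken beside this count or that of transcripts at 0 TPM, so neither sets the pathway apart from other genes. In Xrcc5, Poll and Nhej1 the leading transcript held 100%, which the annotation set beforehand. Xrcc5 and Poll have 1 transcript each, and the other transcript of Nhej1, at 65 nt, is shorter than the RNA used.

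**Figure D2:**
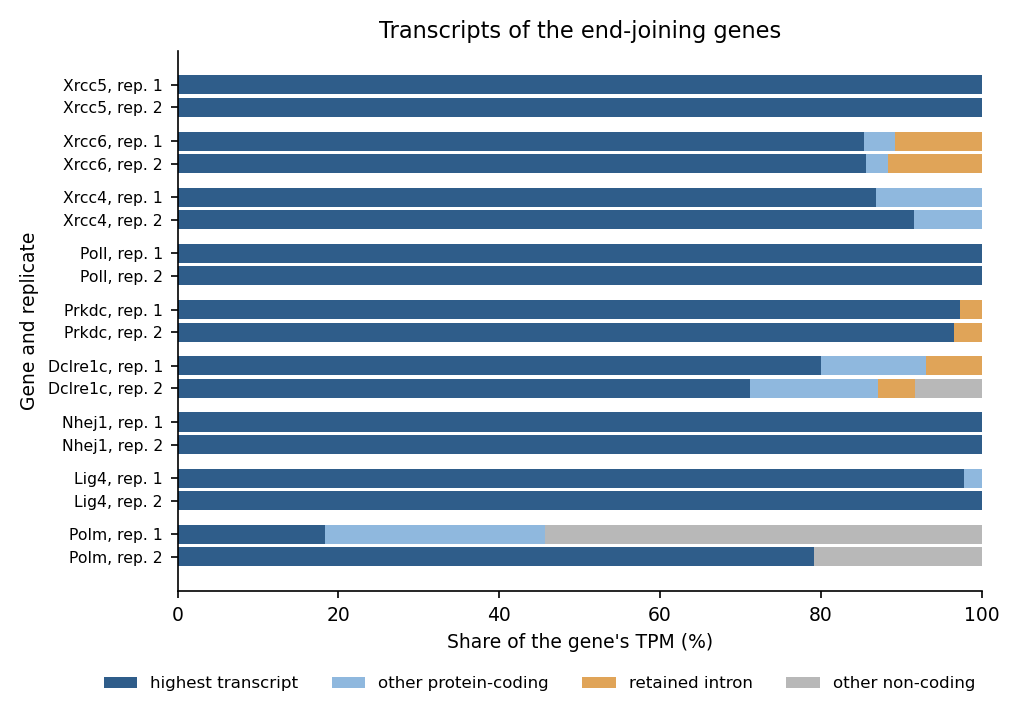
Share of each gene's TPM, in percent, on its transcript with the highest mean share and on other transcripts by annotated type, with replicate 1 above replicate 2. The bars of Polm differ between replicates, while those of the other 8 genes are led by the same transcript in both.

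Transcripts with a retained intron, which do not encode the full protein, were found in Xrcc6, Prkdc and Dclre1c. The full coding transcript Xrcc6-201, with 608 codons, held 85.4% in replicate 1 and 85.6% in replicate 2. The 4 retained-intron transcripts of Xrcc6 together held 10.8% and 11.6%, a mean of 11.2% ± 0.545, from 43.0 and 45.9 counts. They are short, so a few counts give a visible share of TPM. In Prkdc the full transcript Prkdc-201 held 97.4% and 96.5%, and the retained-intron transcript Prkdc-202 held 2.65% and 3.51%. In Dclre1c the retained-intron transcript Dclre1c-206 held 6.90% and 4.69%.

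Xrcc4 was led by its full coding transcript of 326 codons, Xrcc4-201, with 86.8% in replicate 1 and 91.6% in replicate 2. Of the rest, Xrcc4-204 held 8.76% and 3.70% and Xrcc4-203 held 4.41% and 4.68%, each from fewer than 4 counts a replicate. Both are marked as lacking their mRNA end. Xrcc4-202, annotated as a target of nonsense-mediated decay, had 0 counts.

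Most of the Dclre1c signal fell on 2 coding transcripts that differ at their 3′ ends. Dclre1c-203, which encodes 705 residues and ends with a 286-nt 3′ UTR, held 80.1% of the TPM in replicate 1 and 71.2% in replicate 2. Dclre1c-201, which encodes 603 residues and carries a 5179-nt 3′ UTR, held 13.04% and 11.43%. By counts the gap was narrower, since Dclre1c-201 is long: it took 31.6% and 29.4% of the gene's counts, and Dclre1c-203 took 63.7% and 60.1%. A further coding transcript of 473 codons, Dclre1c-204, had 0 counts in replicate 1 and 21.2 counts, or 4.41% of the TPM, in replicate 2. The credibility intervals of Dclre1c-204 overlapped, reaching 0.279 TPM in replicate 1 and beginning at 0.0848 TPM in replicate 2. The opposite-strand gene Suv39h2 overlaps Dclre1c and had 13.3 and 16.1 TPM (732 and 764 counts), and since the strand setting of the quantification is not stated, its part in the Dclre1c values was not tested.

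Lig4 has 2 annotated starts, at positions 9976299 and 9977686 of chromosome 8, and the downstream start was the leading one in the estimates. Lig4-201, whose start lies 12 nt from the RefSeq start of the window printed above, held 97.9% of the TPM in replicate 1 and 100% in replicate 2. Lig4-202, from the upstream start, held 2.15% and 0%, with upper credibility bounds of 0.813 and 0.582 TPM. From posterior mean TPM the share of Lig4-202 was larger, 12.7% in replicate 1 and 8.56% in replicate 2. These transcripts share the same coding part of 911 codons. In the M21 annotation they differ at the 3′ end as well, with a 1997-nt 3′ UTR in Lig4-201 and a 169-nt one in Lig4-202. The Lig4-201 model that the authors quantified was shorter, 4081 nt against 5028 nt in M21, and the length of its 3′ UTR is not known here, so the use of a start and of a 3′ end cannot be told apart. The posterior SD of the count was 14.7 in replicate 1 and 10.2 in replicate 2 for either transcript, of 195 and 188 counts in all.

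Polm was the only gene whose leading transcript changed between replicates. In replicate 1, Polm-205, a non-coding transcript of 579 nt, held 54.3% of the TPM from 6 counts, the coding transcript Polm-201 held 27.4% from 22.9 counts and the coding transcript Polm-202 held 18.4% from 14.1 counts. In replicate 2, Polm-202 held 79.1% from 30 counts, Polm-204, also non-coding, held 20.9% from 2 counts, and Polm-201 and Polm-205 had 0. At these counts the division between transcripts was not resolved.

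The TPM of a gene divides by the length of the transcripts it is assigned to, which bears on the difference between replicates. This difference was taken as replicate 1 minus replicate 2 of log2(TPM + 0.5) over the 11661 genes with a mean of 20 or more counts. Past 1.5-fold was 1 of 9 members, Polm, against 2.69% of all genes tested in either direction and 1.84% higher in replicate 1. Polm was higher in replicate 1 by 0.65 log2 units, and its TPM ratio of replicate 1 to replicate 2 was 1.95. Its counts differed less, with a ratio of 1.34, and its effective length, averaged over its transcripts by the authors, was 1386 nt in replicate 1 and 2088 nt in replicate 2. In edgeR's TMM-scaled counts Polm differed by 0.35 log2 units and no member was past 1.5-fold, against 3.54% of all genes.

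**Figure D3:**
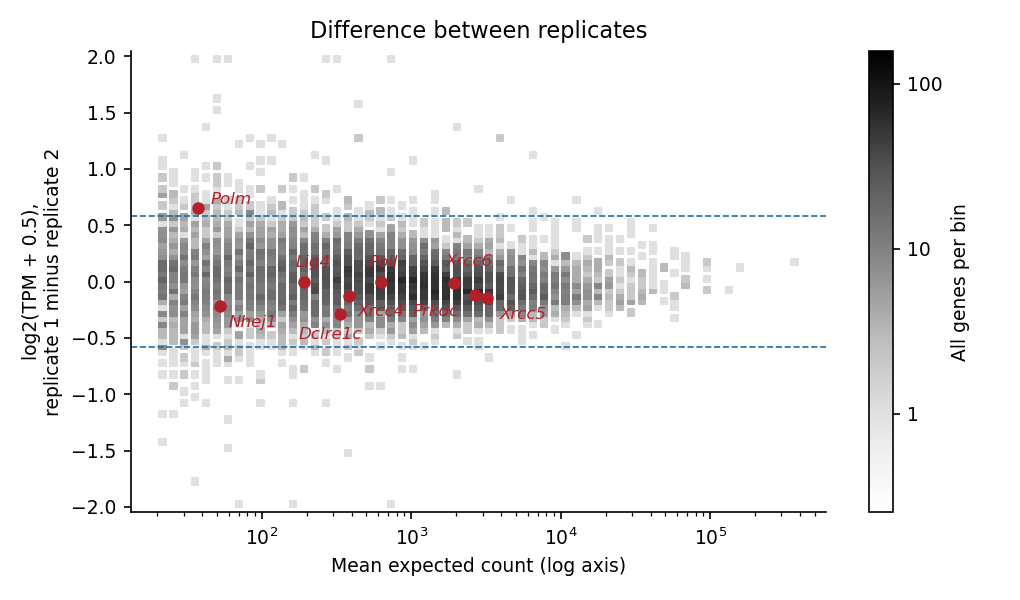
Difference in log2(TPM + 0.5), replicate 1 minus replicate 2, against the mean expected count on a log axis for all 11661 genes tested (grey bins, darker with more genes; differences beyond the vertical axis are drawn at its edge) and for the 9 end-joining genes (red points). Dashed lines mark 1.5-fold, and Polm lies just past the upper one at a mean count where the spread of all genes is wide.

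The other 8 genes were close between replicates. Dclre1c was lower in replicate 1 by 0.29 log2 units (-0.29), Nhej1 had a difference of -0.22, Xrcc5 of -0.15, Xrcc4 and Prkdc of -0.12 each, and Xrcc6, Poll and Lig4 were within 0.01 of 0. In TPM 7 of the 9 were lower in replicate 1, 1 was higher and 1 was equal. In counts, 4 were higher in replicate 1 and 5 were lower. The median size of the difference was 0.12 log2 units for the members and 0.14 over all genes tested.

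Within their enzyme families Lig4 was the lowest ligase, and Poll and Polm lay below Polb and above Dntt, a comparison chosen after the values were seen. Among the DNA ligases, Lig4 had 2.43 TPM in both replicates, Lig1, the replicative ligase, had 32.1 and 26.4 TPM, and Lig3, which acts in base excision repair and in mitochondria, had 35.2 and 31.3 TPM. Both were more than 10-fold above Lig4 in each replicate: the ratio to Lig4 was 12.03 ± 1.64 for Lig1 and 13.7 ± 1.14 for Lig3. Among the family X polymerases, Poll and Polm were below Polb, the base excision repair polymerase, which had 42.2 and 47.7 TPM and was 3.09 ± 0.260 times Poll. Dntt, which encodes terminal transferase and adds untemplated bases in developing lymphocytes, had 0 counts in replicate 1 and 1 count in replicate 2, and the 0 allows a level of up to 0.0765 TPM, counting error only.

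**Figure D4:**
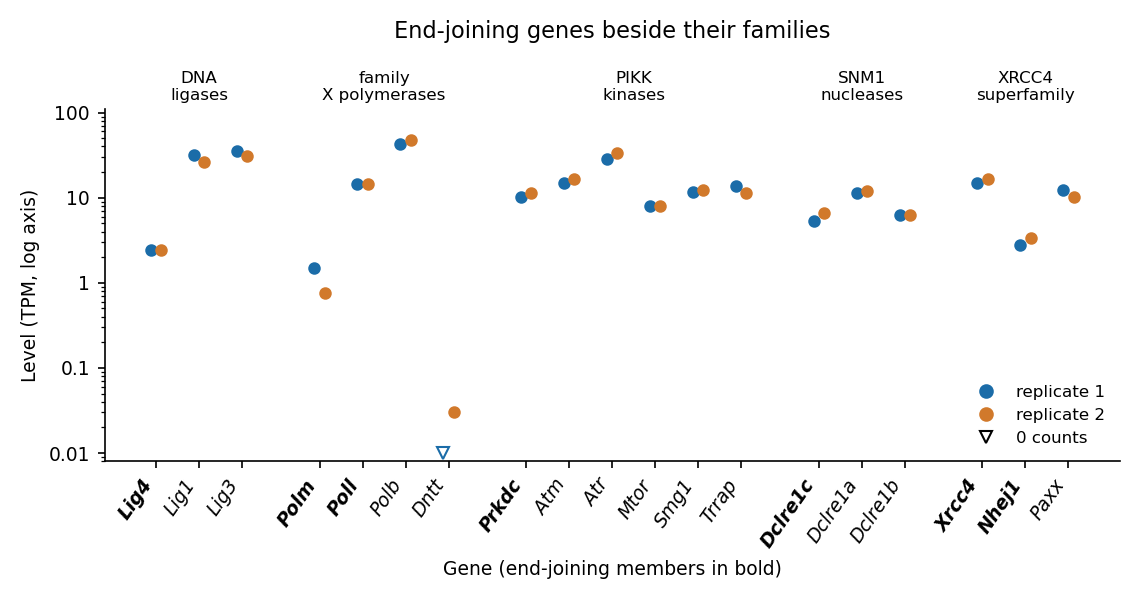
Levels in TPM on a log axis, by replicate, of the end-joining genes (bold) and other genes of the same families. An open triangle marks 0 counts; Lig4 lies more than 10-fold below Lig1 and Lig3, and Polm lies below Poll and Polb.

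The kinases related to DNA-PKcs were nearer to it. Prkdc had 10.3 and 11.2 TPM, against 14.7 and 16.7 TPM for Atm and 28.5 and 33.2 TPM for Atr, the kinases that signal breaks and stalled forks. Atm was thus above Prkdc in both replicates, by 1.46 ± 0.0409 times. Of the other kinases of the family, Mtor, the growth-signalling kinase, was at 8.05 and 8.01 TPM, below Prkdc. Smg1, which acts in nonsense-mediated decay, was at 11.6 and 12.5 TPM, and the values of Trrap, a scaffold without kinase activity, were 13.6 and 11.5 TPM.

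In the family of SNM1 nucleases, Dclre1c with 5.35 and 6.66 TPM overlapped Dclre1b with 6.20 and 6.29 TPM, while Dclre1a was higher at 11.3 and 11.9 TPM. Among the relatives of XRCC4, Nhej1 was the lowest. Paxx, which encodes a further XRCC4-like factor that binds Ku, had 12.5 and 10.3 TPM and was 3.74 ± 0.959 times Nhej1, with the partial gene model of Nhej1 as the limit given above.

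Beyond the core, 44 of 45 listed genes of break repair were matched, and 43 of these reached 1 TPM in both replicates; their median was 16.3 TPM. Of the 44, only Dntt and Mdc1 were below Lig4 in mean level, and Parp1, Fen1 and Tdp2 were above Xrcc5. The 11 genes listed as other factors of classical end joining had a median of 11.4 TPM, close to the 10.8 TPM of the core, and 10 of them passed the level. This list includes Polb, named above as the base excision repair polymerase. They ran from Tdp2, which removes topoisomerase II from ends, at 72.1 ± 7.93 TPM, to Dntt.

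All 11 genes listed for alternative end joining, the route that uses short homologies, passed the level, with a median of 37.2 TPM. The list holds genes with other roles too, such as Lig1 and Lig3 above, so its median is not a measure of this route alone. The highest was Parp1, a sensor of DNA breaks, at 235 ± 4.11 TPM, and the lowest was Rbbp8, which starts the resection of ends, at 19.5 ± 2.44 TPM. Polq, the polymerase of this route, had 20.7 and 22.3 TPM. The 9 core genes thus had a lower median, and 7 of them were below the lowest gene of that list.

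**Figure D5:**
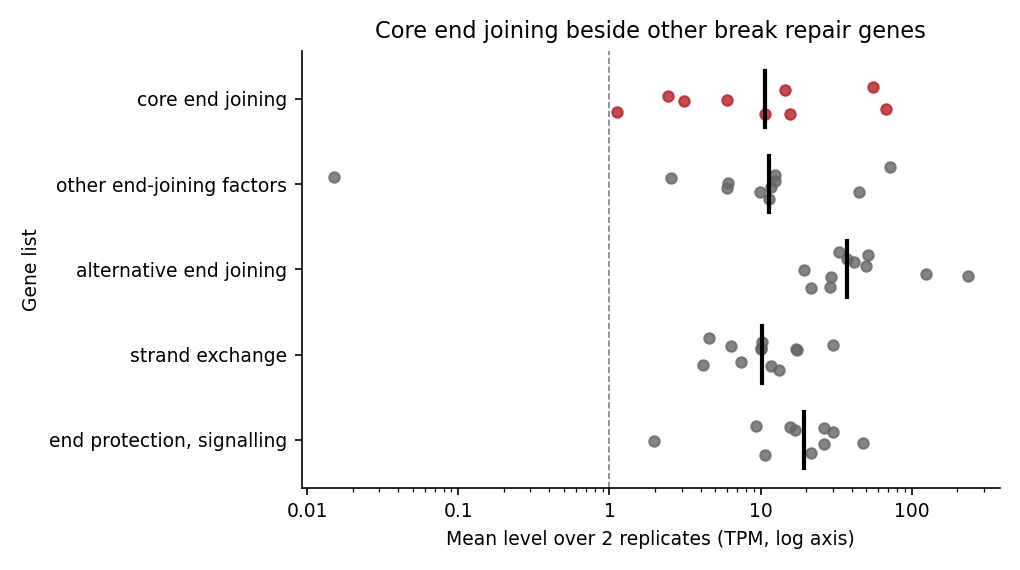
Mean TPM over the 2 replicates, on a log axis, of each gene (points) in the core and in 4 other lists of break repair genes, with the median of each list (bars) and a dashed line at 1 TPM. The core spreads from 1.12 to 67.6 TPM. The list with the highest median, 37.2 TPM, is that of alternative end joining, which holds genes with other roles too.

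The 12 genes of strand exchange, the central step of homologous recombination, all passed the level, with a median of 10.2 TPM. They ran from Brca2 at 4.13 ± 0.438 TPM to Brca1 at 30.2 ± 2.06 TPM, a narrower range than that of the core. Of the 11 genes listed for end protection and break signalling 10 were matched and passed, with a median of 19.3 TPM, from Mdc1 at 1.98 ± 0.389 TPM to Rif1, which protects ends from resection, at 47.3 ± 4.37 TPM. Shld3 was not matched.

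Among the genes that make programmed breaks, the V(D)J recombinase genes were near 0, with 1 count of Rag1 in each replicate and 0 counts of Rag2. Ung, which removes uracil from DNA, had 39.1 and 32.2 TPM. The highest member, Xrcc5, was above Ung in both replicates, and Lig4 was below it.

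By level alone, among the 44 other genes of break repair, the nearest to Xrcc5 was Tdp2, that nearest to Xrcc6 was Parp2 with 46.4 and 55.4 TPM, and that nearest to Xrcc4 and to Poll was Atm. Lig4 and Nhej1 were nearest to Setmar, listed as an accessory factor for the role of its human counterpart, with 2.69 and 2.43 TPM. The nearest to Prkdc was Shld2 with 10.3 and 11.0 TPM, to Dclre1c Aplf with 6.5 and 5.6 TPM (Cyren, with 7.45 and 4.47 TPM, was as near), and to Polm Mdc1 with 2.25 and 1.70 TPM. This is a likeness of level in 1 cell line and not of pattern.

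Several members share their start region with a neighbour on the other strand. A protein-coding gene whose start lay within 1 kb upstream on the opposite strand was found for 3 of the 9, against 6.79% of 21951 protein-coding genes: Lig4 with Abhd13 at 21 nt, Prkdc with Mcm4 at 466 nt and Poll with Gm17018 at 84 nt. Abhd13 had 15.6 and 18.0 TPM and Mcm4, a subunit of the replicative helicase, had 154 and 156 TPM, so both were above their end-joining neighbour. Lig4 was at 0.146 and Prkdc at 0.0694 times the level of that neighbour, each a mean of the ratios within the 2 replicates. Gm17018 had 13.9 TPM in each replicate, close to the 14.6 TPM of Poll.

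The members with such a neighbour depend on which start is used. Counted from the start of the transcript with the highest TPM, Lig4 no longer had one, since Lig4-201 begins at the downstream start, and Xrcc6 gained Desi1 at 206 nt, with 7.66 and 5.81 TPM. The count was again 3 of 9, against 6.76% of genes. With starts on either side of the gene's own start within 1 kb it was 4 of 9, against 10.9%, adding Xrcc4, whose neighbour Tmem167 has a start at -485 nt by the same measure, which is inside Xrcc4, and had 29.6 and 31.7 TPM. Tmem167 and Desi1 also overlap Xrcc4 and Xrcc6 on the opposite strand, and their part in the counts of these genes was not tested.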

How the data were processed

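RNA of 2 biological replicates of CH12.LX was measured. Per the labels and the text that accompanies the files, reads were aligned to mm10 and quantified on GENCODE annotation M4 with spike-in sequences, while for the alignment and quantification software and its strand setting the entry is: not given in the sources used here. Per the file headers, the authors deposited expected counts (estimated reads per feature, not normalized), TPM (per length, scaled to a fixed total over all features), FPKM (counts scaled by length and library size), an isoform percent for each transcript (its share of the gene's TPM), posterior means, posterior SDs, credibility bounds and lengths.

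Symbols, positions and transcript types came from GENCODE M21 on GRCm38, matched by identifier without version, and start regions from RefSeq on GRCm38.p6. Transcript lengths are those of the files, and codons and UTR lengths those of M21. The members and lists were chosen with earlier results of these data known. Genes named are the 9 members, the highest and lowest of each list with a few others, the neighbours and the gene nearest in level. The families, several ratios, Parp1, Fen1 and Tdp2 as genes above Xrcc5, and the motifs were chosen after values were seen. Expression means 1 TPM or more in both replicates. Differences used a pseudocount of 0.5, which understates those of low genes, a mean of 20 or more counts and a 1.5-fold limit. With 1 library on each side no p-value was computed, and the spread between 2 replicates is the only error. The limit behind a count of 0 is 3 counts and covers counting error only. A listed gene of the programmed breaks is not reported here. The difference step was tested on simulated data, with changes set only in genes of far more counts than Polm and with the same lengths in both libraries. That test therefore does not cover the call of Polm. Python 3.11.15, pandas 2.3.3, R 4.3.3 and edgeR 4.0.16 were used, the last for TMM factors on counts rounded to whole numbers.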

Additional observations from a re-analysis of the deposited data

How the results depend on the processing

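The number of members at 1 TPM or more, the isoform count, the order of levels and the count of divergent neighbours moved by at most 1.5 times under every alternative run for them. Without replicate 1 the median level was 11.23 TPM, 8 members were at 1 TPM or more and 7 had a leading transcript over 80%, and without replicate 2 these were 10.28 TPM, 9 and 8. The median level of 10.75 TPM was 14.15 when TPM was rescaled over protein-coding genes outside the mitochondrial genome, and 9.16 in FPKM, where each member scales alike. From expected counts with no length correction, the ratio Xrcc6/Xrcc5 was 0.602, Xrcc4/Lig4 2.01, Nhej1/Xrcc4 0.137 and Prkdc/Dclre1c 7.96, since these genes differ in length. From posterior mean TPM, Prkdc/Dclre1c was 1.57 and Polm/Poll 0.116; the cause was not tested. The number of members past 1.5-fold between replicates was 0, not 1, with posterior mean TPM, TMM, median-of-ratios factors, ERCC totals, a pseudocount of 1, a mean of 100 or more counts (7 members tested) and a 2-fold limit. Over all genes, 314 were past 1.5-fold, against 919 with ERCC totals, which put the median of all genes at -0.30 log2 units, 513 with a pseudocount of 0.1, 957 with no count filter, 126 at a mean of 100 or more counts and 49 past 2-fold. With ERCC totals Polm stood at 0.06 and Xrcc5 at -0.46. No paired analysis was possible because the samples form 1 group. Depth limits Polm, with 43 and 32 counts, and Nhej1, with 49 and 56.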
